A study of Homo sapiens with 4 samples.

Results

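The inhibitor of DNA binding (ID) family consists of ID1, ID2, ID3 and ID4, and all 4 were examined among 20033 protein-coding genes of GENCODE release 44. ID proteins carry a helix-loop-helix domain but lack the basic region that contacts DNA. They pair with the E proteins TCF3, TCF4 and TCF12 and keep these from binding E-boxes, which holds back differentiation factors such as MYOD1. ID genes are well-known targets of BMP and TGFβ signaling, ID1 above all, and ID1 is studied in breast cancer for its part in metastatic growth. For each gene, every peak that overlapped the gene span widened by 10 kb on each side was taken from the lists of all 4 libraries. This gave 6 of the 104156 peaks.

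Chromatin bound by tagged Smad2 or Smad3 was recovered with an anti-GFP antibody from MDA-MB-231, an established human breast cancer line, and sequenced. The cells carried a bacterial artificial chromosome (BAC) transgene in which Smad2 or Smad3, with its native control elements, is fused to a localization and affinity purification (LAP) tag that contains GFP. Each line was a Geneticin-resistant, GFP-sorted population that also kept its own untagged Smads. The 4 conditions were LAP-Smad2 untreated, LAP-Smad3 untreated, LAP-Smad2 with TGFβ-1 and LAP-Smad3 with TGFβ-1. TGFβ-1 was given at 10 ng/mL, for 2 h by the sample labels. There was 1 library per condition, so no difference between conditions could be tested and none has a replicate check. The lists held 11266, 3511, 26828 and 62551 peaks in the same order. The study gives a minimum number of reads, but the total of each library is unknown, and the number of peaks in a list moves with depth as well as with binding.

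The 2 untreated libraries carry conflicting names. The list labelled LAP-Smad2 untreated was deposited under a Smad3 name, and the list labelled LAP-Smad3 untreated under a Smad2 name. Within 100 kb of SMAD2, which the LAP-Smad2 transgene copies, the list labelled LAP-Smad3 untreated had 20 peaks and the list labelled LAP-Smad2 untreated had 2. At SMAD3 these 2 lists had 1 and 0 peaks, whereas the TGFβ-1 lists had 27 peaks at SMAD2 for LAP-Smad2 and 53 at SMAD3 for LAP-Smad3. The untreated lists are called by their labels below, and no difference between the Smads is drawn from them.

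After TGFβ-1, LAP-Smad2 peaks lay at 3 of the 4 genes, ID1, ID2 and ID4, and a LAP-Smad3 peak lay at ID1 alone. ID1 was the gene where both R-Smads had a peak, and those peaks overlapped. ID3 had no peak within 10 kb in any list. In the untreated lists, ID2 had 1 peak in the list labelled LAP-Smad3, and the list labelled LAP-Smad2 had none at any of the 4 genes. None of the 6 peaks touched a promoter, taken as the 250 bases before to 50 bases after the RefSeq start. The share of all promoters touched by a peak was not counted, so this is not read as a trait of the ID genes. The map of peaks around the 4 genes shows these positions out to 100 kb.

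**Figure D1:**
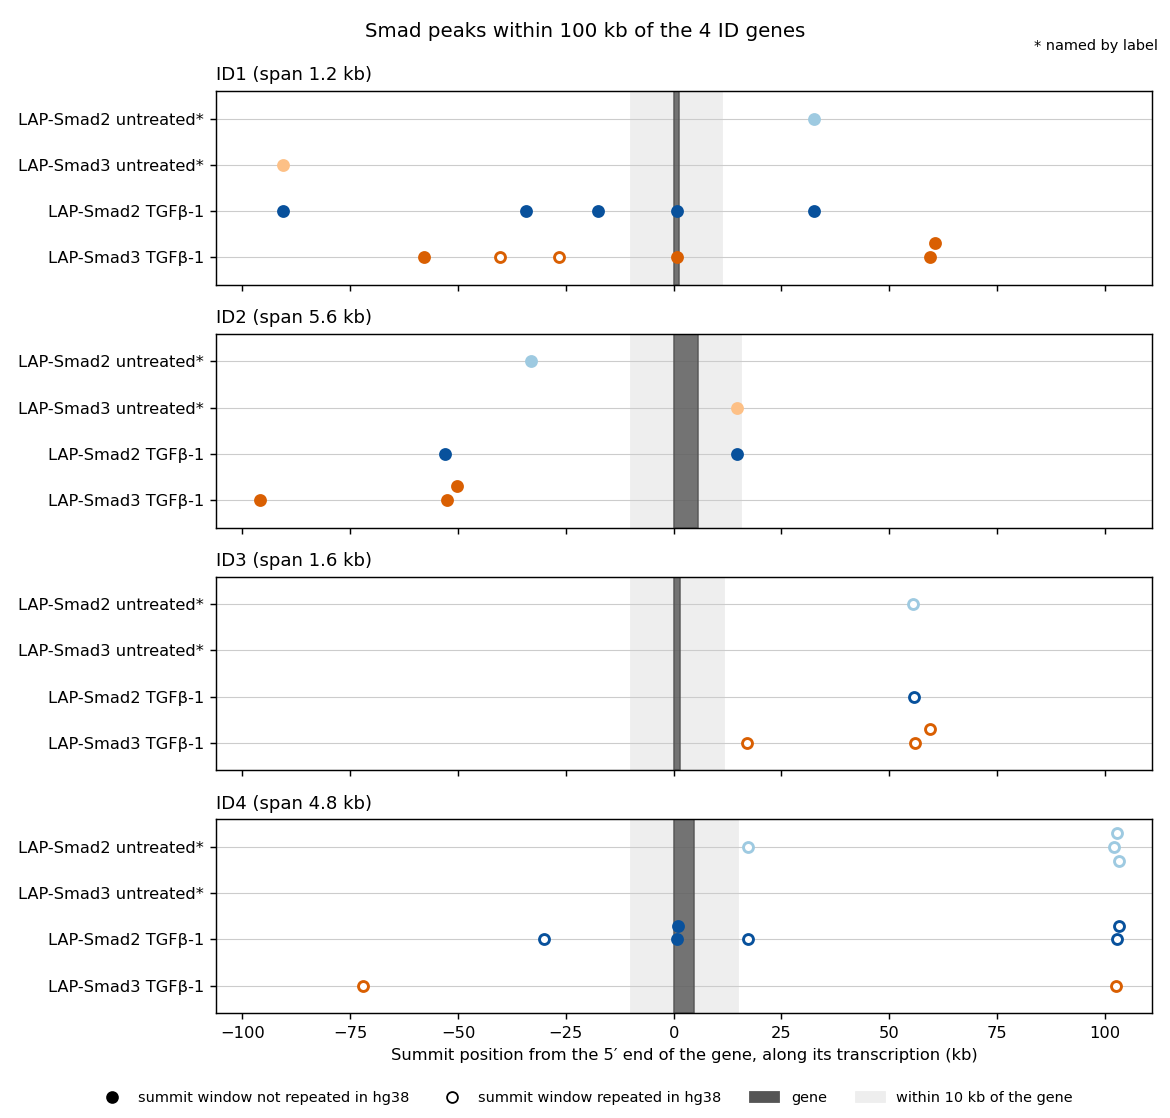
Summits of all peaks within 100 kb of each ID gene (1 panel per gene, 1 row per list, peaks closer than 3.5 kb to each other drawn one above the other), by distance from the 5′ end of the gene in kb. Light shading marks 10 kb on each side of the gene, and open circles mark summit windows that are repeated in hg38. The shaded zone holds 4 LAP-Smad2 TGFβ-1 peaks, 1 LAP-Smad3 TGFβ-1 peak and 1 peak of the list labelled LAP-Smad3 untreated.

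The DNA under the summits is shown here because the motifs described further on are read from it. Sequences are from hg38, 5′ to 3′ on the plus strand, which is the coding strand of ID1, ID2 and ID4. Capitals mark, on either strand, the Smad box CAGAC and the GC-rich 5GC sites GGCGC and GGCCG, which Smad MH1 domains are known to contact. Each line of ID2 and ID4 gives the 200 bp around a summit. For ID1, where the peaks lie over the end of the transcripts, only 30-base sites around the 5GC matches are given. The site of the first line was in both R-Smad windows, and the other 3 sites, of which the third line shows 2, were only in that of LAP-Smad2. Within the deposited peaks, in place of the windows, the site of the second line lay in both as well. Those of the third line lay fully in neither peak, so the line names do not mark sites of one R-Smad alone.
ID1 both, chr20:31606083-31606112: ttgtgtcgctgaaGCGCCtcccccagggac
ID1 LAP-Smad2, chr20:31606161-31606190: ggtctcccccaacGCGCCtcgccggatctg
ID1 LAP-Smad2, chr20:31606199-31606228: caagaccgatcggCGGCCactGCGCCctta
ID2 LAP-Smad2 TGFβ-1, chr2:8693407-8693606: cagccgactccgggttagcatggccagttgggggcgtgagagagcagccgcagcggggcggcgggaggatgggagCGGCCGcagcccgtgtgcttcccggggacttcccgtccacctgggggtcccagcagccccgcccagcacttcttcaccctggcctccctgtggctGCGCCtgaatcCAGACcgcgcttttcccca
ID2 LAP-Smad3 untreated by label, chr2:8693491-8693690: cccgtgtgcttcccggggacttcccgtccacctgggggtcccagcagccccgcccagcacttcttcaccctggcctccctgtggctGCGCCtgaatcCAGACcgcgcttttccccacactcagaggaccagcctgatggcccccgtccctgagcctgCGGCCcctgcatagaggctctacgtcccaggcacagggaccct
ID4 LAP-Smad2 TGFβ-1, first peak, chr6:19837973-19838172: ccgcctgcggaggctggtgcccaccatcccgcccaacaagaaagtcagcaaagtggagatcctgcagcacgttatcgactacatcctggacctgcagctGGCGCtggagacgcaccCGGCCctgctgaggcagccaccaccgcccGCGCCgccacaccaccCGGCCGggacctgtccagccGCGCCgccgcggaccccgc
ID4 LAP-Smad2 TGFβ-1, second peak, chr6:19838386-19838585: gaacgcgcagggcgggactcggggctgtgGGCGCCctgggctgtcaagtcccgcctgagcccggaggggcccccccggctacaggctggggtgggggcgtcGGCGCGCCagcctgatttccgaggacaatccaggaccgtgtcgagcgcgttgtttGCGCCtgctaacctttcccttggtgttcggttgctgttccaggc

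ID1 (ENSG00000125968.9) spans chr20:31605283-31606515 on the plus strand, 1233 bp with 2 transcripts. The LAP-Smad2 TGFβ-1 peak ran from 31605938 to 31606212 with its summit at 31606158, which is 869 bp downstream of the nearest start site and in the 3′ untranslated region of both transcripts. The LAP-Smad3 TGFβ-1 peak ran from 31605839 to 31606191 with its summit at 31606023, 734 bp from the nearest start site, in the 3′ untranslated region of one transcript and the intron of the other. Both peaks therefore lay inside the gene, past most of its coding sequence. They shared 254 bp, 92.4% of the LAP-Smad2 peak and 72.0% of the LAP-Smad3 peak, with summits 135 bp apart. The fold enrichment over the local background, as the peak caller gave it, was 3.38 for LAP-Smad2, at or above 18.4% of its list. For LAP-Smad3 it was 4.59, at or above 39.6% of its list. Ranked by −log10 q, 4.42 for LAP-Smad2 and 4.91 for LAP-Smad3, they stood at 41.9% and 63.4%. Each list has its own fold scale, and a rank depends on the length and the makeup of its list, so neither compares the R-Smads in strength. By fold, both ID1 peaks were below the median of their list. Neither untreated list had a peak at ID1, the nearest being 31.3 kb away in the list labelled LAP-Smad2 and 90.5 kb away in that labelled LAP-Smad3.

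ID2 (ENSG00000115738.10) spans chr2:8678845-8684461 on the plus strand, 5617 bp with 4 transcripts and 3 start sites. Its peaks lay outside the gene, on the far side of its 3′ end. The LAP-Smad2 TGFβ-1 peak ran from 8693383 to 8693703, with a summit 9046 bp past the gene end and 10727 bp from the nearest ID2 start site. In the list labelled LAP-Smad3 untreated, deposited under a Smad2 name, the peak ran from 8693447 to 8693781 with its summit 9130 bp past the gene end. The pair overlapped by 257 bp, 80.1% of the LAP-Smad2 TGFβ-1 peak and 76.7% of the untreated one, with summits 84 bp apart. Among the 4 genes, ID2 alone thus had a peak both without and with TGFβ-1. The pair joins different R-Smads by label and the same one by deposited name. How many of all genes had such a pair was not counted, so it is not read as a trait of ID2. Fold enrichment was 4.51 in the LAP-Smad2 TGFβ-1 list, at or above 78.5% of it, and 4.17 in the untreated list, at or above 64.3% of it. By −log10 q these peaks stood at 62.6% and 31.2%. No LAP-Smad3 TGFβ-1 peak lay within 50.1 kb of the gene, although 93.3% of protein-coding genes had a peak of that list as near or nearer. No other annotated start site of any gene was closer to either summit than that of ID2.

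ID4 (ENSG00000172201.12) spans chr6:19837370-19842197 on the plus strand, 4828 bp with 1 transcript. It had 2 LAP-Smad2 TGFβ-1 peaks, both inside the gene. The first, from 19837842 to 19838232, had its summit in the coding sequence, 703 bp downstream of the start site. Of the 6 peaks it had the highest rank by −log10 q, 8.76, at or above 91.6% of its list, and its fold was 4.39, at or above 72.0%. The second, from 19838431 to 19838722, had its summit in the intron that follows, 1116 bp from the start site. It was the weakest of the 6 by either rank, with a fold of 2.88, at or above 4.06% of its list, and a −log10 q of 2.91, at or above 7.86%. An antisense long non-coding RNA gene, LNC-LBCS, also holds both summits, and its nearest start site was 594 bp from the second. Anti-GFP reads carry no strand that would assign a peak to one gene or the other. The LAP-Smad3 TGFβ-1 list had no peak within 71.7 kb of ID4, and 96.3% of protein-coding genes had one as near or nearer. Just outside the 10 kb limit, 12.2 kb past the gene end, the list labelled LAP-Smad2 untreated and the LAP-Smad2 TGFβ-1 list had overlapping peaks with summits 15 bp apart, and both windows were repeats.

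ID3 (ENSG00000117318.9) spans chr1:23557926-23559501 on the minus strand, 1576 bp with 3 transcripts. No list had a peak within 10 kb of it. The nearest peaks were 15.2 kb away for LAP-Smad3 with TGFβ-1 and 54.0 kb away for LAP-Smad2 with TGFβ-1. In the untreated lists they were 53.6 kb away under the LAP-Smad2 label and 300.5 kb away under the LAP-Smad3 label. Of protein-coding genes, 79.5% had a LAP-Smad3 TGFβ-1 peak as near as ID3 did, and 79.4% a LAP-Smad2 TGFβ-1 peak. Of the lists' 5 peaks within 100 kb of ID3, all 5 had a repeated summit window. The nearest peaks in windows that are not repeats were 121 kb away for LAP-Smad2 and 154 kb away for LAP-Smad3 after TGFβ-1. With the depth of each library unknown beyond that minimum, a missing peak shows only that none was called.

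**Figure D2:**
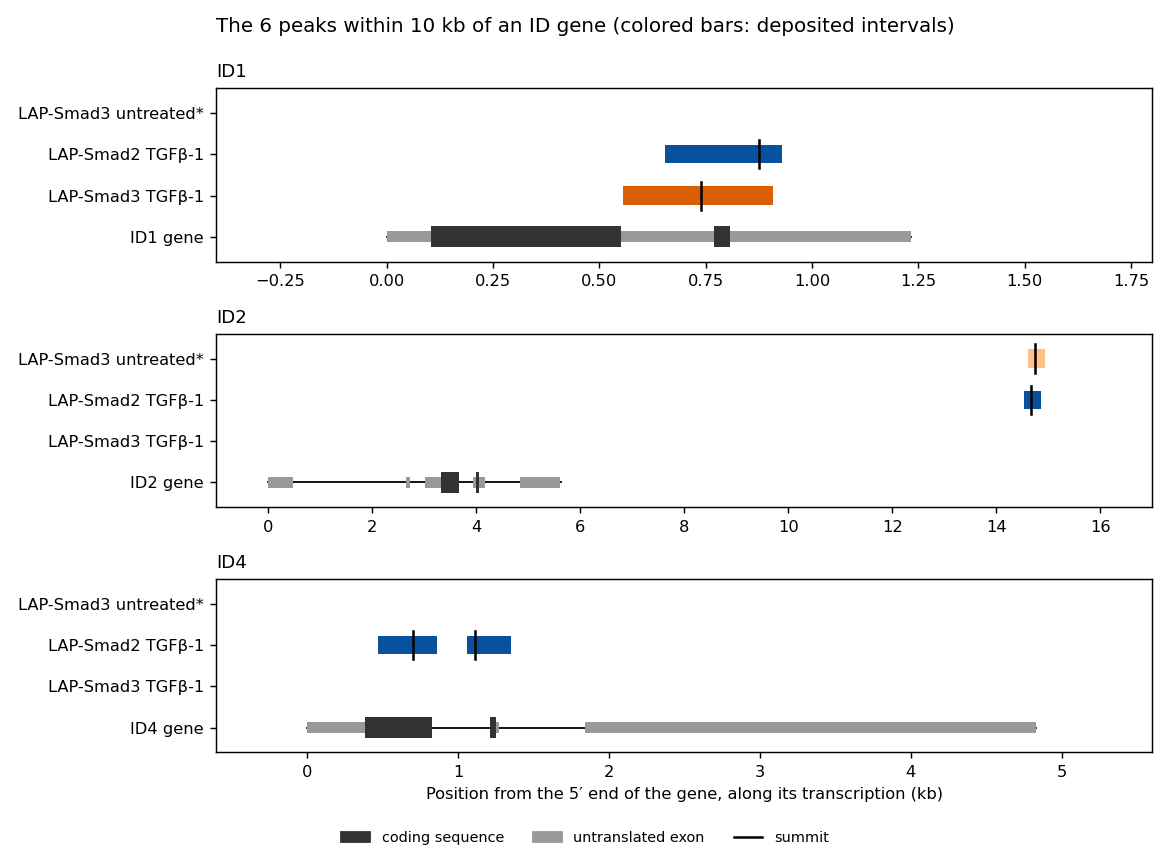
The 6 peaks within 10 kb on the models of ID1, ID2 and ID4, by distance from the 5′ end of the gene in kb, with a separate scale per panel. Colored bars are the deposited intervals and black ticks the summits, and the gene row joins the exons of all transcripts. ID1 and ID4 peaks lie inside the gene, with summits between 703 and 1116 bp from the nearest start site, and the ID2 peaks lie beyond its 3′ end.

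A peak near a gene was common in the TGFβ-1 lists, and the counts at the ID genes were read against that. Among protein-coding genes, 55.9% had a LAP-Smad2 TGFβ-1 peak within 10 kb, beside 3 of the 4 ID genes. For LAP-Smad3 with TGFβ-1 the share was 74.3%, beside 1 of 4. In the untreated lists it was 22% under the LAP-Smad2 label, beside 0 of 4, and 9.14% under the LAP-Smad3 label, beside 1 of 4. Each pattern over the TGFβ-1 lists was also seen at many other genes. Overlapping peaks of both R-Smads, as at ID1, were found at 16.8% of genes. LAP-Smad2 peaks without LAP-Smad3 peaks, as at ID2 and ID4, were found at 8.88%. Neither R-Smad, as at ID3, was found at 16.8%. With 4 genes and 1 library per condition, no departure from these shares was tested.

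ID genes are short, and short genes offer less room for a peak. Of the 3301 protein-coding genes that span at most 6 kb, a limit set after seeing the data so that it holds all 4 ID genes, 39.2% had a LAP-Smad2 and 56.1% a LAP-Smad3 peak within 10 kb after TGFβ-1. Among them, 9.0% had overlapping peaks of both, 11.3% LAP-Smad2 peaks alone and 32.6% neither. ID4 had 2 LAP-Smad2 TGFβ-1 peaks, and 15.2% of these short genes had 2 or more. A gene with no peak in any of the 4 lists, as ID3, was found at 15.6% of all genes and 30.7% of the short ones.

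The 6 peaks at the ID genes stood in DNA of which nearly every word occurs once in the genome, unlike most windows of each list. A summit window of 200 bp was counted as repeated where over 50% of its 20-base words also occur elsewhere in hg38, a measure added after seeing the data. By this count 94.6% and 64.3% of the windows were repeated in the lists labelled LAP-Smad2 and LAP-Smad3 untreated, 54.5% for LAP-Smad2 with TGFβ-1 and 65.1% for LAP-Smad3 with TGFβ-1. At the ID genes it was 0 of 6, with at most 2.21% of words found elsewhere. From 10 to 100 kb away, 17 of 31 windows were repeated, 2 of 11 around ID1, 0 of 5 around ID2, and all of the 5 around ID3 and the 10 around ID4. How far repeats raised the number of called peaks was not tested.

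Without the repeated windows the counts at the ID genes did not change, and the shares of all genes fell. A LAP-Smad2 TGFβ-1 peak in a window that is not repeated lay within 10 kb of 42.1% of protein-coding genes, and a LAP-Smad3 TGFβ-1 peak near 44.3%. In the untreated lists the shares were 3.42% under the LAP-Smad2 label and 6.74% under the LAP-Smad3 label. Overlapping peaks of both R-Smads, as at ID1, then remained at 4.92% of genes, a LAP-Smad2 peak alone was found at 16.6% and neither at 39.1%. Within the lists, 8.45% of the LAP-Smad2 TGFβ-1 peaks in such windows overlapped one of LAP-Smad3 and 4.78% the reverse, against 24.5% and 10.6% over all peaks. For ID4, the nearest LAP-Smad3 peak in a window that is not repeated was 299 kb away, and 86.5% of genes had one as near. At ID2 the distance stayed at 50.1 kb, and 62.0% of genes had one as near, well below the share over all peaks.

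**Figure D3:**
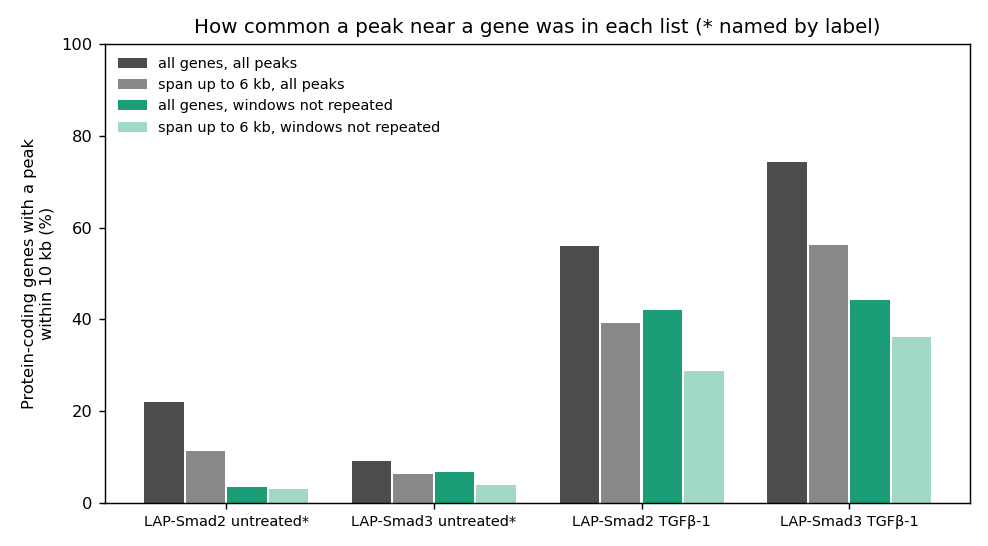
Percent of protein-coding genes with a peak within 10 kb in each list, for all 20033 genes and for the 3301 genes that span at most 6 kb, with all peaks or with only those in windows not repeated in hg38. Bars start at 0 and each comes from 1 library. LAP-Smad3 with TGFβ-1 had the highest bar of each kind, 74.3% for all genes and peaks, and the list labelled LAP-Smad2 untreated fell from 22% to 3.42% without repeats.

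By fold enrichment, the peaks at the ID genes lay within the body of their lists, except the second ID4 peak. Its fold of 2.88 was below the 5th percentile of its list, 2.95. Of the 4 LAP-Smad2 TGFβ-1 peaks, the ID2 peak and the first ID4 peak were above the list median of 3.98, and the ID1 peak and the second ID4 peak were below it. Counted over windows that are not repeated, the 4 stood at 84.0% for ID2, 78.2% and 2.65% for ID4, and 19.9% for ID1. By −log10 q over the same windows, they stood at 70.0% for ID2, 96.1% and 9.97% for ID4, and 48.8% for ID1. The ID1 LAP-Smad3 peak stood at 32.3% by fold and 73.2% by −log10 q in its list counted that way. The distribution plot of fold enrichment shows these positions.

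**Figure D4:**
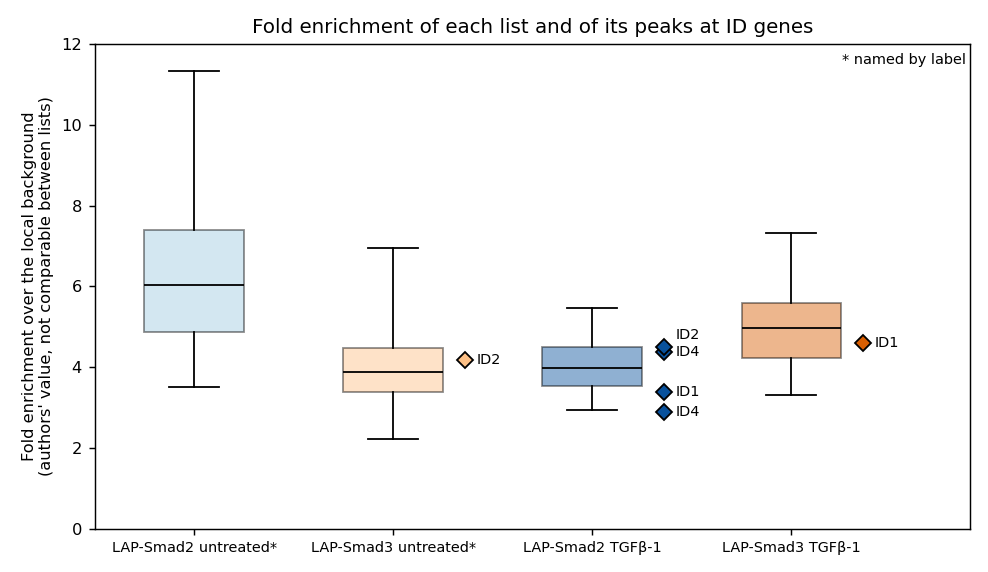
Fold enrichment over the local background in each list (box: quartiles and median, whiskers: 5th to 95th percentile of all peaks of the list) and for the peaks within 10 kb of an ID gene (diamonds, labels moved apart where they would overlap). Values are the authors' and are not comparable between lists. The ID2 and first ID4 peaks of LAP-Smad2 with TGFβ-1 lie above the median of 3.98, and the ID1 LAP-Smad3 peak, 4.59, lies below the median of 4.97.

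The summit windows at ID1 and ID4 held 5GC sites and no Smad box, and those at ID2 held both. In the LAP-Smad2 window at ID1 there were 3 matches to GGCGC and 1 to GGCCG, the nearest 18 bp from the summit. The LAP-Smad3 window at ID1 held 1 match to GGCGC, 75 bp from the summit. Over the whole deposited intervals the order turned, with 2 matches to the 5GC sites under the LAP-Smad2 peak and 3 under the LAP-Smad3 peak, so no difference between the R-Smads is drawn from these counts. At ID4, the first window held 3 matches to each form, one of them 1 bp from the summit, and the second held 5 matches to GGCGC and none to GGCCG. The form GGCGC was in 57.7% and GGCCG in 57.6% of all LAP-Smad2 TGFβ-1 windows, and in 43.4% and 35.8% of LAP-Smad3 TGFβ-1 windows. Over windows that are not repeated, as those at the ID genes, the shares were 56.5% and 64.8% for LAP-Smad2 and 23.1% and 34.1% for LAP-Smad3. At least one of the 2 forms was in 80.1% of these LAP-Smad2 windows and 47.4% of these LAP-Smad3 windows. The part of base composition in these counts was not tested. The windows were 65.5% to 71% G and C, against list medians of 65% for LAP-Smad2 with TGFβ-1, 58.5% for LAP-Smad3 with TGFβ-1 and 63% under the LAP-Smad3 untreated label. Over windows that are not repeated, the medians were 67.5%, 60.5% and 69.5% in the same order. The LAP-Smad2 window at ID1, 65.5%, and the untreated window at ID2, 68.5%, were below these.

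At ID2, both windows held the same Smad box, at chr2:8693588-8693592. It was 83 bp from the LAP-Smad2 TGFβ-1 summit and 1 bp from the summit of the list labelled LAP-Smad3 untreated. A Smad box was in 35.3% of LAP-Smad2 TGFβ-1 windows, in 34.4% of LAP-Smad3 TGFβ-1 windows and in 34.8% of windows under the LAP-Smad3 untreated label. Over windows that are not repeated, the share was 36.1% for LAP-Smad2 and 44.5% for LAP-Smad3 after TGFβ-1. E-boxes, CANNTG, are the sites of the E proteins that ID proteins bind. There were 2 in the LAP-Smad2 TGFβ-1 window at ID2, 1 in the untreated window, 1 in the first ID4 window and none in the other 3. An E-box was in 51.9% of all LAP-Smad2 TGFβ-1 windows and in 61.2% of windows under the LAP-Smad3 untreated label. The AP-1 site TGANTCA, the cAMP response element and the Smad palindrome GTCTAGAC were in none of the 6 windows.

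**Figure D5:**
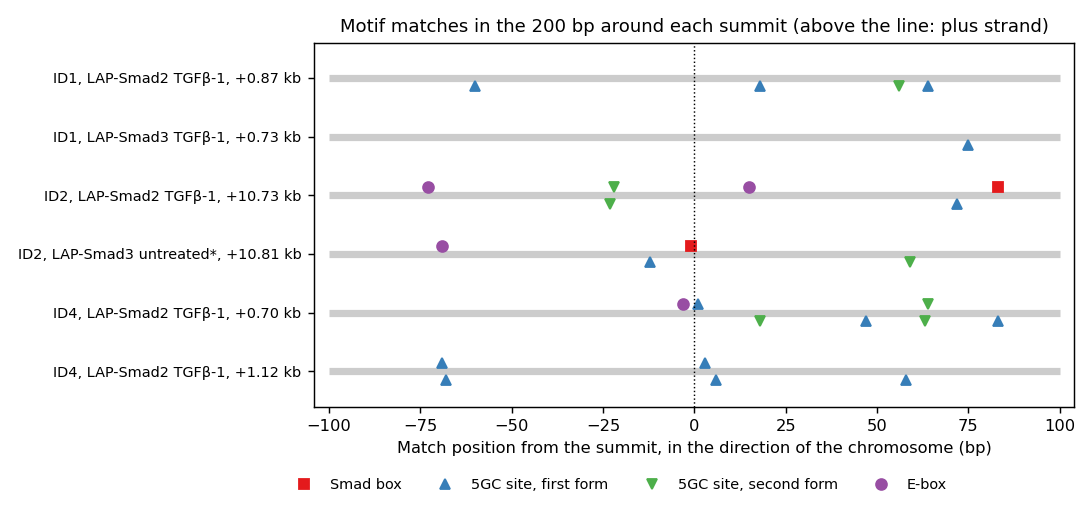
Positions of motif matches in the 200 bp around the summits of the 6 peaks within 10 kb of an ID gene, in bp from the summit along the chromosome, with plus-strand matches above and minus-strand matches below each line. The first form of the 5GC site is GGCGC and the second GGCCG, and an E-box is drawn once because it reads alike on both strands. Smad boxes are seen at ID2 alone, 83 bp and 1 bp from the summits.

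RefSeq promoters of the 4 genes (GRCh38.p14, all 4 matched by symbol among 35116) were searched for the same motifs. A Smad box was found once in the promoters of ID3 and ID4 and in neither of the other 2, and 45.3% of all promoters of this length held one. ID2 and ID4 each had 4 matches to GGCGC and ID1 and ID3 had none, against 48.6% of promoters with one. The form GGCCG was found 2 times each at ID1, ID3 and ID4 and was absent at ID2, against 49.3% of promoters. An E-box was found once each at ID2 and ID4 and was absent at ID1 and ID3, against 68.7% of promoters. No peak of any list touched these windows, ID3 included. How many promoters of other genes a peak touched was not counted.

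Between 10 and 100 kb, each peak around the ID genes lay nearer to an annotated start site of another gene than to that of the ID gene. Summits right at such a start site were seen around ID1 alone. Around ID2, ID3 and ID4 the smallest distance was 832 bp, to LINC01814. The share of all peaks at start sites was not counted. Around ID1, LAP-Smad2 TGFβ-1 summits lay 13 bp from a start site of HM13, a signal peptide peptidase gene, and 55 bp from that of COX4I2, a subunit gene of cytochrome c oxidase. The list labelled LAP-Smad3 untreated had a peak at that HM13 start as well, overlapping by 269 bp, and the list labelled LAP-Smad2 untreated had one at COX4I2, overlapping by 172 bp. LAP-Smad3 with TGFβ-1 had a summit 7 bp from another HM13 start and 2 peaks within BCL2L1. Over the 100 kb on each side, ID1 had 13 peaks in the 4 lists, ID2 had 7, ID3 had 5 and ID4 had 12. After TGFβ-1 the LAP-Smad2 list had 14 peaks over the 4 genes and the LAP-Smad3 list 14. Within 10 kb they had 4 and 1 in total over the 4 genes. The means over protein-coding genes of any length, 1.13 and 2.54 peaks, are per single gene. They are therefore not on the scale of these totals. No such mean was taken at 100 kb, and the lists hold 26828 and 62551 peaks, so the counts at these margins are not compared. Genes other than the ID genes share these wider windows, so the peaks cannot be assigned to ID genes.

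One of the LAP-Smad2 TGFβ-1 peaks near ID1, 34.2 kb upstream within HM13, held the full Smad palindrome GTCTAGAC, 19 bp from its summit. It is shown because the palindrome was in only 0.0447% of the windows of this list, and in 0.0819% of those that are not repeated, and it was picked out after its value was seen. Its fold was 3.24, at or above 12.5% of the list, and 1.66% of its words occur elsewhere in hg38. No LAP-Smad3 peak overlapped it, which was the more common case in this list. Only 24.5% of LAP-Smad2 TGFβ-1 peaks overlapped a LAP-Smad3 TGFβ-1 peak. Counting only windows that are not repeated in both lists, the share was 8.45%.
HM13, chr20:31571016-31571215, plus strand, capitals as above and for the palindrome: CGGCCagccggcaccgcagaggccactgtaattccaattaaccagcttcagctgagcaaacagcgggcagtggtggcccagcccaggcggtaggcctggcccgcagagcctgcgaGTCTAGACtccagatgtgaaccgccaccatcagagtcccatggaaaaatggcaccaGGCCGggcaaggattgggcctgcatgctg

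Genes for the partners of ID proteins and other early Smad targets were counted the same way. Of 16 partner genes (E proteins, other helix-loop-helix factors, PAX and ETS factors and RB1), 11 had a LAP-Smad2 and 10 a LAP-Smad3 peak within 10 kb after TGFβ-1, beside the 55.9% and 74.3% of all genes. PAX5, a B-cell transcription factor, had 6 LAP-Smad2 and 12 LAP-Smad3 peaks, the most of this list. TCF3, which encodes the E proteins E12 and E47, had 9 LAP-Smad3 peaks and none of LAP-Smad2. LAP-Smad3 peaks alone were found at 27.3% of all genes, and at 18.9% without the repeated windows. PAX2 had 3 and 4 and PAX8 had 2 and 5. PAX5, TCF3, PAX2 and PAX8 span 201, 43.3, 94.5 and 62.9 kb. The mean over all genes was 1.13 LAP-Smad2 and 2.54 LAP-Smad3 peaks, and gene length was not taken into account. MYOD1, MYF5 and MYOG, the muscle factors that ID proteins restrain, had none of either. The same held for ELK3, which spans 75.45 kb, whereas the muscle factors span at most 2.88 kb. Neither R-Smad was found at 16.8% of all genes and at 32.6% of those that span at most 6 kb. In the untreated lists 4 of 16 had a peak under the LAP-Smad2 label, beside 22% of all genes, and 1 under the LAP-Smad3 label, beside 9.14%. Without the repeated windows these counts were 0 and 1, beside 3.42% and 6.74% of all genes. After TGFβ-1 they were then 8 for LAP-Smad2 and 7 for LAP-Smad3, beside 42.1% and 44.3%.

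Of 15 early Smad target genes, 8 had a LAP-Smad2 and 12 a LAP-Smad3 peak within 10 kb after TGFβ-1, beside 55.9% and 74.3% of all genes. In the lists labelled LAP-Smad2 and LAP-Smad3 untreated, 1 and 3 had one, beside 22% and 9.14% of all genes. Without the repeated windows, 8 and 10 had one after TGFβ-1, beside 42.1% and 44.3%. The untreated lists then had 0 and 2, beside 3.42% and 6.74%. PMEPA1, a feedback inhibitor of TGFβ signaling, had 5 LAP-Smad2 and 16 LAP-Smad3 peaks. ATOH8, a helix-loop-helix factor, had 4 and 14. LDLRAD4, another inhibitor of R-Smad activation, had 5 and 12, and SKI, a corepressor of Smads, had 0 and 12. PMEPA1, ATOH8, LDLRAD4 and SKI span 63.1, 40.04, 435 and 82.8 kb. The mean over all genes was 1.13 LAP-Smad2 and 2.54 LAP-Smad3 peaks, and gene length was again not taken into account. Without the repeated windows PMEPA1 and ATOH8 kept their counts, whereas LDLRAD4 had 4 and 8 and SKI had 0 and 7. The pattern of ID2 and ID4, LAP-Smad2 without LAP-Smad3, was seen at none of the 15 targets and at 2 of the 16 partners, OLIG1 and HES1, beside 8.88% of all genes. With repeated windows left out it was seen at 2 targets, JUNB and SKIL, and at 3 partners, HES1, OLIG1 and TCF12, beside 16.6% of all genes. Overlapping peaks of both R-Smads, as at ID1, were found at 3 of the 15 targets, CDKN1A, LDLRAD4 and PMEPA1, both with all peaks, beside 16.8% of all genes, and without the repeated windows, beside 4.92%.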

How the data were processed

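The 4 members, the 2 gene lists, the motifs and the alternatives were chosen with earlier results of these data known. Samples were grouped by their labels, with 1 library per condition. Per the submitters' processing notes and the study's methods, the authors used Bowtie2 for alignment to hg38 and MACS2 for peak calling, with reads lengthened to 200 bp and q-values up to 0.05 kept. Bedtools is also named, and versions and the control library are not given in the sources used here. The deposited lists hold, per peak, the fold enrichment (a ratio of summit pileup to local background, by the authors) and its p-value and q-value, both as −log10. The authors also deposited the summit offset, from which summits were taken. The study states a minimum number of reads, and the depth of each library beyond it is unknown. How reads with several alignments were handled is not given, which bears on peaks in repeats.

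Gene spans and start sites came from GENCODE release 44 and sequences from hg38, with coordinates counted from 1. Peaks were counted within 10 kb of a gene, and overlap meant at least 1 bp. A rank is the percent of a list at or below a value. Motifs were searched on both strands in 200 bp around each summit, and overlapping matches were all counted. Words of 20 bases were counted over chromosomes 1 to 22, X and Y. Python 3.11.15, numpy 2.4.6, pandas 2.3.3, numba 0.67.0 and matplotlib 3.10.9 were used, and 7 of 7 checks on simulated data passed. The text names the 4 ID genes with all their peaks and up to 4 genes of each list, those with the most peaks over both TGFβ-1 lists. The muscle factors, ELK3, the genes of the shared patterns and the neighbors were named after their values were seen. Conditions were compared without a test.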

Additional observations from a re-analysis of the deposited data

How the results depend on the processing

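With the stricter q-value of 0.01, the summit inside the widened span, or windows that are not repeated, all counts at the ID genes stayed as they were. A margin of 5 kb took away the ID2 peaks, leaving 0 peaks and 0 genes in the list labelled LAP-Smad3 untreated. A margin of 50 kb gave 3 peaks at 3 genes under the LAP-Smad2 untreated label, 9 peaks for LAP-Smad2 and 4 peaks at 2 genes for LAP-Smad3 after TGFβ-1. A margin of 100 kb, added after seeing the data, gave 7 peaks at 4 genes, 2 peaks at 2 genes, 14 peaks, and 14 peaks at 4 genes in the order LAP-Smad2 untreated, LAP-Smad3 untreated, LAP-Smad2 and LAP-Smad3 with TGFβ-1. The shared ID1 site remained with 50% mutual overlap and with lists of equal length, and was lost, 0 sites, when summits had to lie within 100 bp.

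The percent of protein-coding genes with a peak fell, in the same order, to 11.4, 6.51, 38.7 and 54.7 for spans of at most 5 kb, a class that leaves out ID2. It was 11.2, 6.3, 39.2 and 56.1 for at most 6 kb, 7.93, 5.47, 38.5 and 46.5 within 10 kb of the 5′ end alone, and 3.42, 6.74, 42.1 and 44.3 for windows not repeated. For LAP-Smad3 with TGFβ-1 it was 73.6 at the stricter q-value. Ranked by −log10 q instead of fold, the peaks stood at 41.9% (ID1, LAP-Smad2), 63.4% (ID1, LAP-Smad3), 31.2% (ID2, untreated), 62.6% (ID2, LAP-Smad2), and 91.6% and 7.86% (ID4). In the whole interval in place of 200 bp, the 5GC sites numbered 2 and 3 at ID1 (LAP-Smad2, LAP-Smad3), 4 at ID2 (untreated) and 17 at the first ID4 peak, and the second ID4 peak held 1 E-box. Distances from the 5′ end alone were within 1.5 times those reported. No paired analysis was possible because each condition had 1 library and no test was run.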
